A study of Mus musculus with 43 samples.

Results

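A set of 10 neuronal transcripts was followed through RNA libraries of sorted brain endothelial cells (EC). The 10 genes are Map2, Rbfox3, Snap25, Syt1, Grin1, Grin2b, Camk2a, Slc17a7, Gad1 and Prox1, taken by gene symbol from a table of 54532 genes, and all 10 were found. EC had been sorted as CD45-, CD11b- and CD31+ cells from cortex or hippocampus of mice aged 2 months, after myelin had been removed with beads. Of the 43 libraries, 21 came from cortex and 22 from hippocampus, and 16 came from female and 27 from male mice. The long-inbred strains were 129S1/SvImJ (9 libraries), C57BL/6J (6), NOD/ShiLtJ (6), A/J (5) and DBA/2J (5), and the wild-derived strains were WSB/EiJ (6) and CAST/EiJ (6). The mice carried no transgene, deletion or treatment in the labels. Sample titles also hold the word high or low, which is not defined in the sources used here. In male mice 14 libraries were titled high and 13 low, and in female mice 15 and 1. Which libraries share a mouse is not in the labels. Libraries were therefore taken as separate samples, and p-values measure the spread between them.

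Neurons signal by releasing transmitter from synaptic vesicles onto receptors of the next cell. Snap25 and Syt1 serve in that release, Snap25 as part of the complex that fuses the vesicle with the membrane and Syt1 as its calcium sensor. Grin1 and Grin2b are subunits of the NMDA type of glutamate receptor, and Camk2a is a calcium-dependent kinase abundant behind that synapse. Slc17a7 loads glutamate into vesicles and marks excitatory neurons, whereas Gad1 makes GABA and marks inhibitory neurons. Map2 binds microtubules in dendrites, and Rbfox3 encodes the nuclear antigen NeuN. Prox1 is a transcription factor of dentate granule neurons in the hippocampus, and it is also a master regulator of lymphatic EC. Neurons are not a target of the sort, so these transcripts were read as RNA of another cell type in the libraries. Whether the reads came from RNA carried over from neurons or from the EC was not tested.

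Positions are those of mm10 in GENCODE release M21, and all 10 genes are protein coding. Map2 lies on chromosome 1 from 66175273 to 66442583 on the plus strand, and Prox1 lies on the same chromosome from 190118035 to 190170714 on the minus strand. Snap25 lies on chromosome 2 from 136713453 to 136782428 on the plus strand. Syt1 lies on chromosome 10 from 108497650 to 109010982 on the minus strand. Some exons overlap an antisense gene, the longest overlap being 1307 bases between Grin1 and Grin1os, and the strand setting of the counting is not given in the sources used here. Grin1os stood at 0.11 CPM on average, above Grin1 in 1 library. Prox1os reached 12.6 CPM and stood above Prox1 in 2 libraries, so that reads of Prox1 are less certain there.

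The promoter windows of Map2 and Syt1 are printed because these genes varied together across libraries (r = 0.68, given as a description). That of Prox1 is printed because its mean relative to Snap25 differed most by region. Each window runs from 250 bases before to 50 after a RefSeq start in GRCm38.p6, 5′ to 3′ on the strand of the gene. Capitals mark GGGCGG, the core of a GC box, and TATAAA, the core of a TATA box, on either strand. The windows are chr1:66175079-66175378 (plus strand) for Map2, chr10:109010926-109011225 (minus strand) for Syt1 and chr1:190170778-190171077 (minus strand) for Prox1.
Map2: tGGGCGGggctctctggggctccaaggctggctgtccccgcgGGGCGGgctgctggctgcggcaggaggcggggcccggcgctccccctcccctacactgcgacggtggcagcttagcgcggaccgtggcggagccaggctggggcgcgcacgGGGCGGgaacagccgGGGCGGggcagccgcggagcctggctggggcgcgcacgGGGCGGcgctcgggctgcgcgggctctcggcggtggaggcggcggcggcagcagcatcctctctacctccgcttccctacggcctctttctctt
Syt1: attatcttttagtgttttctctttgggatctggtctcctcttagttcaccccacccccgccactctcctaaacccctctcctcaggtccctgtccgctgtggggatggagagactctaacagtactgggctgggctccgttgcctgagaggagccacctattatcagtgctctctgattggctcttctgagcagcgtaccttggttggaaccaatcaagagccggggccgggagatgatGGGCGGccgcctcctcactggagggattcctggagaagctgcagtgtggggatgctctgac
Prox1: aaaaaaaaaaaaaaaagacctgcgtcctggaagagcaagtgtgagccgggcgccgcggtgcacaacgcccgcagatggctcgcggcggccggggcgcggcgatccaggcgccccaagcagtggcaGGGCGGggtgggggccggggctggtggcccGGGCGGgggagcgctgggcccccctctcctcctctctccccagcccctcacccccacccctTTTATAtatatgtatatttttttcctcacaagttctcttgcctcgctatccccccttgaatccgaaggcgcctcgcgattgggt
The printed window of Map2 held 5 matches of GGGCGG, that of Syt1 1 and that of Prox1 2. TATAAA was matched 1 time in the printed window of Prox1. Syt1 and Prox1 each have a further start, whose windows are not printed. That of Syt1 (chr10:109009062-109009361) held 0 matches of GGGCGG. That of Prox1 (chr1:190169466-190169765) held 1 of GGGCGG and 0 of TATAAA. Of 32851 RefSeq promoter windows, 35.7% held GGGCGG and 13.6% held TATAAA. Windows were found for 7 of the 10 genes, 9 windows in all, of which 7 held GGGCGG and 2 held TATAAA. Those for Snap25, Grin2b and Camk2a were not analysed here.

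All 10 transcripts were detected, and their summed level lay below that of the endothelial markers in every library. Libraries held 1626534 to 49372356 counts on genes. Levels are given as CPM, counts scaled to a common library size by the TMM method, and together the 10 genes gave 946 ± 589 CPM (SD, n = 43 libraries), from 304.6 to 2916 CPM. Raw counts on them made up 0.0332% to 0.332% of a library. The summed CPM of 12 endothelial markers was 13881 ± 1843 (SD, n = 43), with a lowest library at 9201 CPM. Pecam1, which encodes CD31, ranged from 446 to 1099.9 CPM. Markers of microglia, which the CD45 and CD11b gates remove, were low, with a sum of 0.55 to 147 CPM over 43 libraries and Tmem119 at 0 in 28 of 43 libraries.

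Camk2a was the most abundant of the 10 per length of transcript. Levels between genes were compared as CPM per kilobase of exon, as medians over 43 libraries. Camk2a stood at 37.5, above Map2 in 43 of 43 libraries. Map2 followed at 10.1 and Snap25 at 8.63, in an order that held in 27 of 43 libraries only. Slc17a7 stood at 6.75, Syt1 at 5.14, Grin2b at 4.72 and Rbfox3 at 3.43. The lower end was taken by Grin1 at 1.52, Gad1 at 0.91 and Prox1 at 0.61. Gad1 was above Prox1 in 23 of 43 libraries, so that the order of this last pair was not stable. For comparison, Cldn5, a tight junction gene of EC, stood at 726 CPM per kilobase and Pecam1 at 138. Glutamatergic Slc17a7 was thus more abundant per length than GABAergic Gad1, and both medians were below those of Cldn5 and Pecam1.

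Detection depended on the gene. A count of 3 was taken as the floor, which covers counting error only. Map2, Snap25, Syt1, Grin2b, Camk2a and Slc17a7 were above it in all 43 libraries. Rbfox3 was at or under the floor in 2 libraries, Grin1 in 3, Gad1 in 10 and Prox1 in 11. Gad1 had no count in 3 libraries and Prox1 in 7. All 10 passed the filter of 0.5 CPM in at least 1 library.

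**Figure D1:**
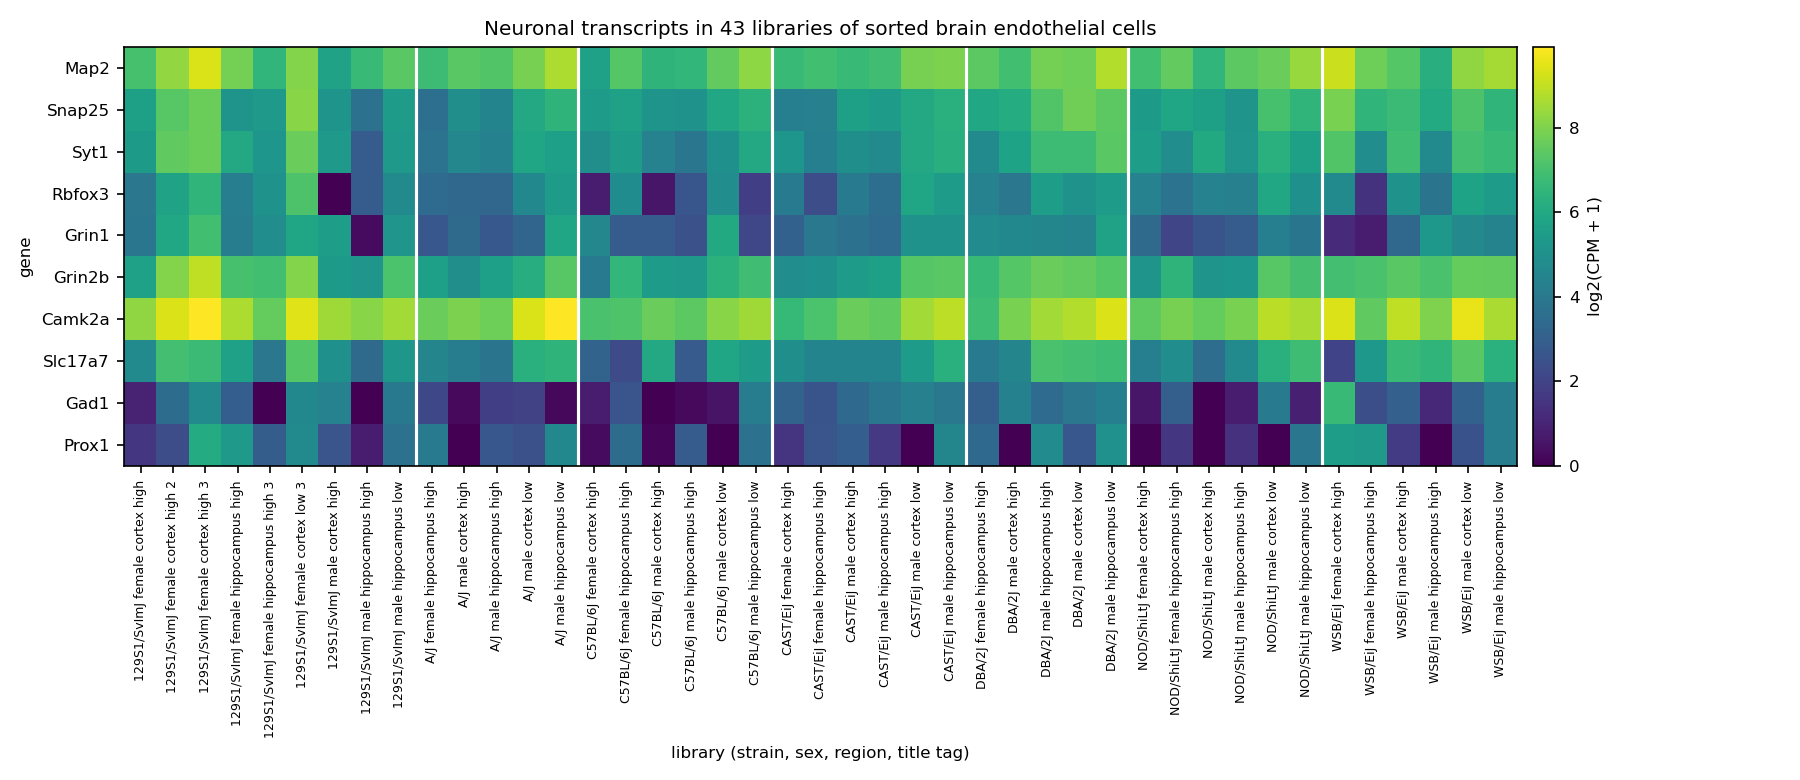
Levels of the 10 neuronal transcripts as log2(CPM + 1), by gene (rows) and library (columns, ordered by strain, sex, title tag and region, with white lines between strains). Camk2a and Map2 were bright in nearly every column, and the 129S1/SvImJ female cortex libraries high 3 and low 3 were the brightest columns, with means over the genes of 7.45 and 7.10.

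The transcripts rose and fell together from library to library. The mean of log2(CPM + 1) over the 10 genes ran from 3.40 in a 129S1/SvImJ male hippocampus library titled high to 7.45 in a 129S1/SvImJ female cortex library titled high. Snap25 and Syt1, the vesicle release genes, were the closest pair. Their Pearson's r was 0.88 (permutation p = 9.9999e-06, the smallest the permutations can give, adjusted p = 3.0e-05 over 45 pairs, n = 43). Spearman's rho was 0.81 (permutation p = 9.9999e-06, adjusted p = 2.5e-05). After the 2 libraries whose Snap25 lay farthest out were dropped, r was 0.85, and it was 0.86 within female and 0.90 within male libraries. Over the 45 pairs of genes r ranged from 0.10 to 0.88 with a median of 0.55, and 38 pairs passed an adjusted p of 0.05 by Pearson's r and 41 by Spearman's rho. The loosest pair was Grin1 with Prox1 (r = 0.10, permutation p = 0.507, rho = 0.095, permutation p = 0.545, n = 43). Prox1 was at or under 3 counts in 11 of 43 libraries and Grin1 in 3.

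Among 8662 genes with a mean of at least 10 CPM, those most like the mean of the 10 over 43 libraries were Ank3 (r = 0.88), Adcy1 (0.87), Kif5c (0.85), Dclk1 (0.85) and Bsn (0.83). These values are descriptions. Ank3 anchors channels at the start of the axon, Kif5c is a motor of axonal transport, and Bsn organises the presynaptic active zone. Over the vesicle release list of 17 genes fixed beside the members, 16 could be compared and had a median r of 0.68. For the postsynaptic list of 12 genes the median was 0.65. For 10 pan-neuronal genes it was 0.52, for 3 cortical excitatory genes 0.42 and for 2 hippocampal genes 0.24. For 3 oligodendrocyte markers it was 0.38, for 9 astrocyte markers 0.25, for 8 pericyte markers -0.11 and for 12 endothelial markers -0.54. The hippocampal median thus lay near that of the astrocyte markers, and the cortical excitatory median near that of the oligodendrocyte markers. The 1 GABAergic gene compared had an r of 0.30.

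Within male mice, libraries titled low held more neuronal RNA than libraries titled high. The comparison asks how far the transcripts follow a label that the sources leave undefined. In edgeR's quasi-likelihood test 4 of 10 genes rose in low libraries and none fell, where 1.06% of 27529 genes tested were called (0.77% in the direction of higher in low). The median log2 difference, low minus high, was 0.997 over the 10 genes and -0.04 over all genes tested, and it was positive for 10 of 10. DESeq2 called 5 of the 10, and gave no adjusted p for Gad1 and Prox1.

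Map2 showed the clearest difference. In low libraries its lowest, median and highest values were 162, 246 and 438 CPM (n = 13), and in high libraries 51.4, 110.2 and 225 CPM (n = 14). Its log2 difference was 1.19 ± 0.18 (SE, adjusted p = 4.9e-05). The groups overlapped between 162 and 225 CPM, but when male libraries were matched by strain and region the low library was the higher of the pair in 13 of 13 pairs. In A/J hippocampus, for example, Map2 stood at 413 CPM in the low and 148 CPM in the high library.

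Camk2a, the synaptic kinase, also rose in low libraries. It ran from 280 through 432 to 934 CPM in low libraries and from 168 through 238 to 497 CPM in high libraries. The log2 difference was 0.95 ± 0.16 (SE, adjusted p = 4.4e-04), and the low library was the higher in 13 of 13 matched pairs. Grin2b, the other gene of this synapse to pass, had medians of 157 CPM in low (71.2 to 190) and 42.5 CPM in high libraries (28.4 to 199), with a log2 difference of 0.96 ± 0.25 (SE, adjusted p = 0.030). It was higher in the low library in 12 of 13 pairs, the exception being DBA/2J hippocampus, at 157 against 199 CPM. Grin1 differed by 1.03 ± 0.42 (SE, adjusted p = 0.41) and was higher in 9 of 13 pairs.

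Snap25 lay near the threshold. Its values were 43.4, 84.8 and 218 CPM in low and 12.05, 38.1 and 147 CPM in high libraries (lowest, median and highest). The log2 difference was 0.95 ± 0.26 (SE, adjusted p = 0.0497), and after scaling by DESeq2's size factors the edgeR value was an adjusted p of 0.066. Its partner Syt1 did not pass, at 0.88 ± 0.29 (SE, adjusted p = 0.17). Both were higher in the low library in 13 of 13 matched pairs, although the 2 groups overlapped in each gene.

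The remaining genes had positive differences that did not pass. Rbfox3 differed by 1.37 ± 0.42 (SE, adjusted p = 0.12), with medians of 42.0 and 11.9 CPM. Slc17a7 differed by 1.06 ± 0.32 (SE, adjusted p = 0.099), with medians of 77.4 and 21.6 CPM. Slc17a7 marks excitatory neurons, and Gad1, given next, inhibitory neurons. Gad1 differed by 0.82 ± 0.72 (SE, adjusted p = 0.65) and Prox1 by 1.44 ± 0.80 (SE, adjusted p = 0.65). Low counts limited both, with 6 of 14 high libraries at or under the floor for each.

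**Figure D2:**
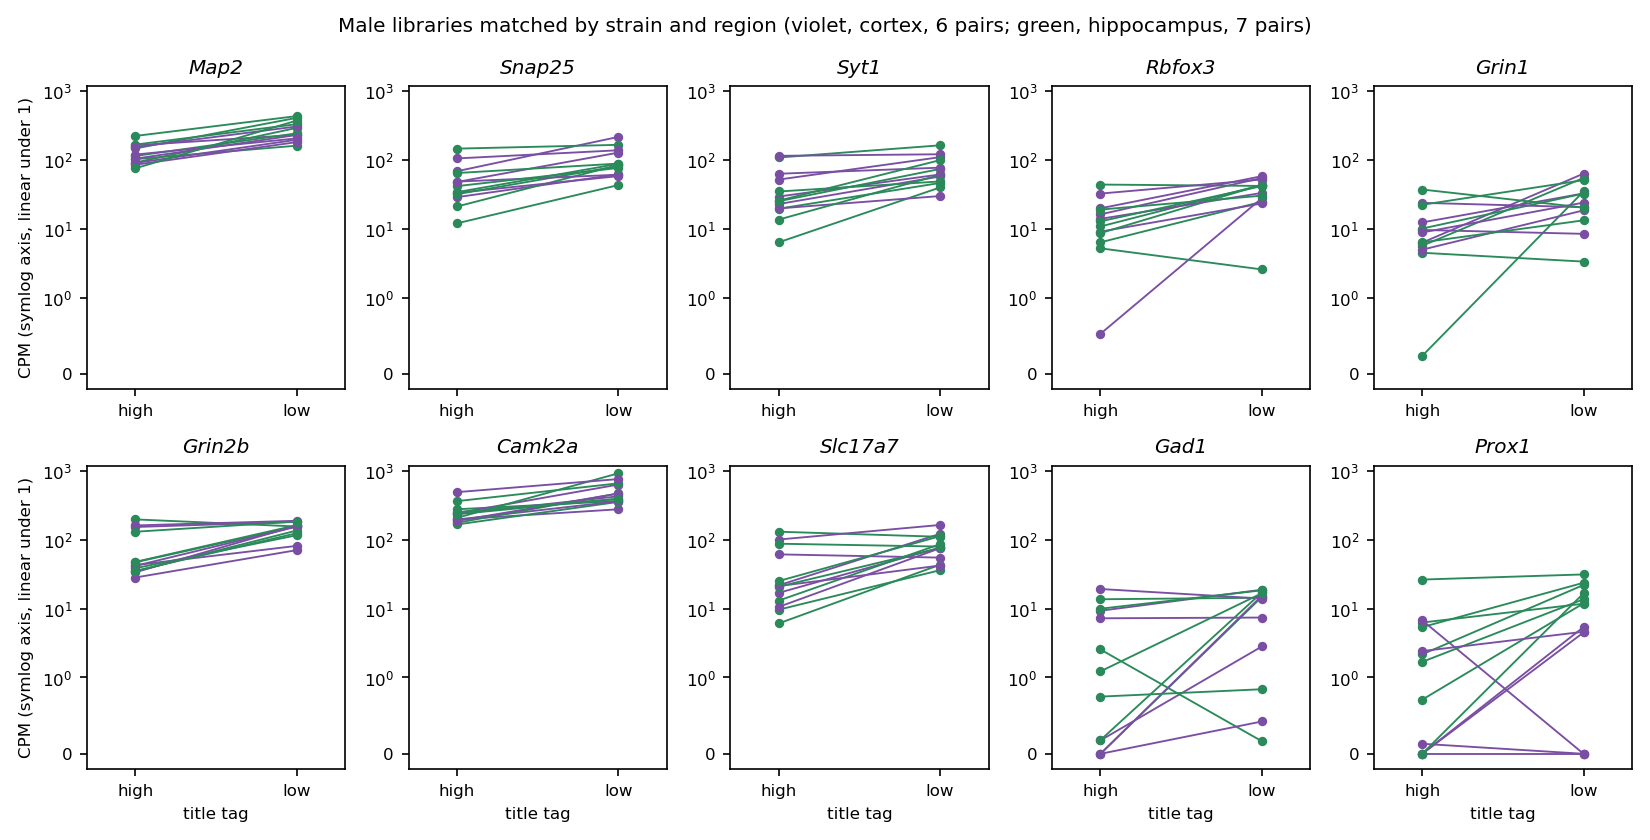
CPM of each neuronal transcript in 13 pairs of male libraries titled high and low (symlog axis, linear under 1), with lines joining libraries of the same strain and region (violet, cortex, 6 pairs, and green, hippocampus, 7 pairs). For Map2, Snap25, Syt1 and Camk2a all 13 lines rise from high to low, whereas lines of Gad1 and Prox1 start from 0 in several pairs and cross.

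The pairing in that plot uses labels only, and does not imply the same mouse. In splits chosen after seeing the data, within cortex alone 0 of the 10 passed by edgeR's quasi-likelihood test (6 at an unadjusted p under 0.05, DESeq2 not run). Within hippocampus alone 1 passed, Map2. Few genes were called in either split, 27 of 22392 tested in cortex and 5 of 24028 in hippocampus. Leaving out 129S1/SvImJ, A/J, C57BL/6J, CAST/EiJ or NOD/ShiLtJ left 2 genes past the threshold, in each case Map2 and Camk2a. In these fits 124 to 195 of all genes were called. With strain and region as covariates 7 passed, the further ones being Syt1, Rbfox3 and Slc17a7, where 560 of 24455 genes were called. The interaction of tag and region passed in 0 of 10 genes, with 0 at an unadjusted p under 0.05 (edgeR's quasi-likelihood test, DESeq2 not run).

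Genes of the same pathways, listed beside the members, were also examined. Of 70 listed neuronal genes tested, 10 rose in low male libraries, 0 fell, and 63 had a positive difference, with a median of 0.80. Over all genes tested 1.06% were called, 0.77% as higher in low, and the median difference was -0.04. Among 12 postsynaptic genes 4 rose. Of these Shank1, a scaffold of the postsynaptic density, differed by 1.04 ± 0.19 (SE, adjusted p = 8.0e-04), and Gria2, an AMPA receptor subunit, by 1.62 ± 0.31 (SE, adjusted p = 0.0020). Among 17 vesicle release genes 5 rose, with Cplx2, a regulator of fusion, at 0.96 ± 0.19 (SE, adjusted p = 0.0025). Of 13 further pan-neuronal genes 1 rose, the neurofilament gene Nefl, by 1.36 ± 0.35 (SE, adjusted p = 0.031). None of the 9 cortical excitatory, 10 GABAergic and 9 hippocampal genes tested passed, although 3, 2 and 1 of them had an unadjusted p under 0.05 (edgeR).

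Markers of other cell types moved with the tag as well, where 1.06% of all genes tested were called. Of 10 astrocyte markers 4 rose in low libraries and all 10 had a positive difference (median 0.85), and their summed level ran from 3167 to 19792 CPM in low and from 1469 to 7305 CPM in high libraries. Aldoc, a glycolytic enzyme of astrocytes, differed by 1.12 ± 0.23 (SE, adjusted p = 0.0039). Of 6 oligodendrocyte markers 1 rose and all 6 were positive, with sums of 31.4 to 189 CPM in low and 14.7 to 156 CPM in high libraries. Of 5 precursor markers 1 rose, with sums of 52.4 to 461 CPM in low and 31.4 to 172 CPM in high libraries.

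Among 12 endothelial markers 2 fell in low libraries, 1 rose, and 10 had a negative difference. Cldn5 fell by 0.96 on the log2 scale (SE 0.15, adjusted p = 7.8e-05), and Erg, an endothelial transcription factor, differed by 0.60 ± 0.14 (SE, adjusted p = 0.0093). The summed endothelial level was 13039 ± 859 CPM in low (SD, n = 13) and 14591 ± 1680 CPM in high libraries (SD, n = 14), with ranges that overlapped. Of 8 pericyte markers 1 rose, Rgs5, and the sums ran from 2399 to 9399 CPM in low and from 1959 to 7924 CPM in high libraries. Totals overlapped, from 2710356 to 6858266 counts in low and from 1626534 to 10567966 in high libraries. The part of these other cell types and of depth in the neuronal result was not tested, and in bulk libraries fewer cells of a type and less RNA per cell cannot be told apart.

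**Figure D3:**
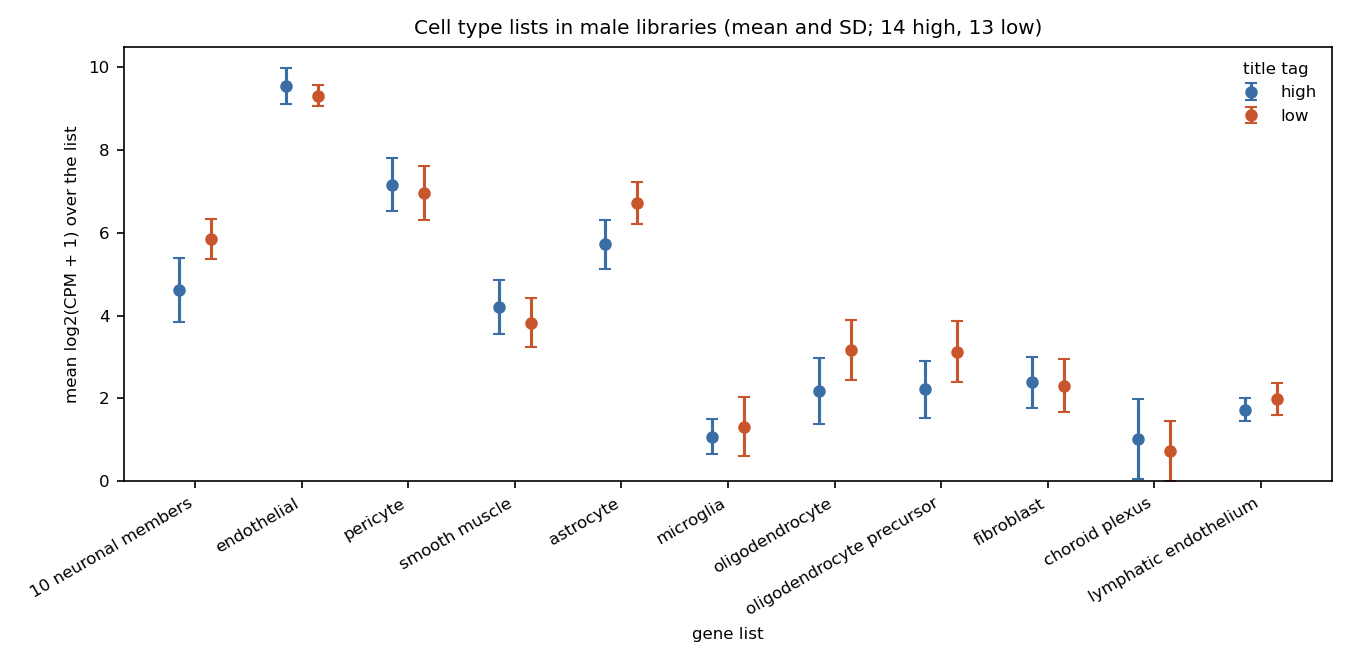
Mean of log2(CPM + 1) over each gene list in male libraries (points, mean, and bars, SD, for 14 high and 13 low libraries). The 10 neuronal transcripts stood at 4.62 ± 0.77 in high and 5.86 ± 0.48 in low libraries, and the astrocyte list also stood higher in low libraries, while the endothelial list stood at 9.55 ± 0.44 in high and 9.32 ± 0.26 in low libraries.

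In female mice the tag could not be tested, with 1 library titled low. That library, 129S1/SvImJ female cortex low 3, held 268 CPM of Map2, between the 128, 314 and 652 CPM of the 3 cortex libraries of the same strain and sex titled high. Its Snap25 stood at 281 CPM, above their 48.2, 159 and 204 CPM. This library thus lay inside the range of the high libraries for Map2 and above it for Snap25.

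Cortex and hippocampus were compared to ask whether the neuronal RNA differs by the tissue from which EC were sorted. None of the 10 passed by edgeR's quasi-likelihood test, where 0.0755% of 29120 genes were called, and DESeq2 also called 0. At an unadjusted p under 0.05 were 2 genes by either tool, Snap25 and Syt1. The median log2 difference, hippocampus minus cortex, was -0.48 over the 10 and 0.03 over all genes, and it was positive for 1 gene, Prox1. In 18 pairs matched by strain, sex and tag, which use labels only and average libraries with the same labels, hippocampus was the higher in 14 for Map2, 13 for Prox1, 11 for Grin2b, 7 for Snap25 and 5 for Syt1. The mean over the 10 genes was higher in hippocampus in 10 of 18 pairs, so that the pairs of Map2 and Grin2b did not follow the sign of the fitted medians.

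Syt1 ran from 19.9 through 57.9 to 206 CPM in cortex (n = 21) and from 6.38 through 35.3 to 164 CPM in hippocampus (n = 22), in lowest, median and highest values. Its log2 difference was -0.78 ± 0.28 (SE, p = 0.0064 by edgeR's quasi-likelihood test, adjusted p = 0.66). Snap25 had medians of 61.4 CPM in cortex (18.2 to 281) and 52.2 CPM in hippocampus (11.2 to 167), with a difference of -0.70 ± 0.27 (SE, adjusted p = 0.67). The regions overlapped over most of their range in both genes. Camk2a differed by -0.38 ± 0.21 (SE, adjusted p = 0.67) and Map2 by -0.03 ± 0.22 (SE, adjusted p = 0.99).

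The size of these differences rested on few libraries. In female libraries alone the median over the 10 genes was -1.39, and in male libraries alone it was -0.03, with 0 called in either (8 and 2 at an unadjusted p under 0.05, edgeR). Without the 9 libraries of 129S1/SvImJ it was -0.09, and without the 2 libraries highest in the 10 genes it was -0.21. The interaction of region and sex passed in 0 of 10 genes, with 5 at an unadjusted p under 0.05 (edgeR's quasi-likelihood test, DESeq2 not run). Astrocyte markers had a median log2 difference of -0.60, and their summed level was 1264 to 19792 CPM in cortex and 1108 to 9604 CPM in hippocampus. Of the 10 markers 1 was positive, Gfap, at 1.61 ± 0.35 (SE, adjusted p = 0.023 by edgeR's quasi-likelihood test). Gfap was also the only astrocyte marker to pass. The part of astrocyte markers in the neuronal values was not tested.

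Prox1 alone had a positive fitted difference over all libraries. In male libraries alone Map2 (0.48, adjusted p = 0.80 by edgeR), Grin2b (0.12) and Camk2a (0.01) were also above 0. Its median was 1.97 CPM in cortex (0 to 67.1) and 11.04 CPM in hippocampus (0 to 40.4), and 9 of 21 cortex against 2 of 22 hippocampus libraries were at or under the floor. The fitted log2 difference of 0.74 ± 0.61 (SE, adjusted p = 0.67) did not pass. In male libraries titled low, Prox1 ran from 11.8 to 31.6 CPM in 7 hippocampus libraries and from 0 to 5.42 CPM in 6 cortex libraries, without overlap. It had no count in 3 of these cortex libraries, and the share of all genes with such a gap was not computed. The interaction of tag and region passed in 0 of 10 genes (edgeR). In male libraries titled high the regions overlapped, at 0 to 26.6 CPM in 7 hippocampus and 0 to 6.78 CPM in 7 cortex libraries. In female mice the highest value lay in cortex, at 67.1 CPM in 129S1/SvImJ high 3.

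Each gene was also set against Snap25 in the same library, which removes a change of total neuronal RNA that all genes share. This does not hold where a gene is at 0, since the value then follows Snap25 alone. Prox1 was at 0 in 6 of 21 cortex and 1 of 22 hippocampus libraries. The quantity is the difference in log2(CPM + 1), tested between regions by a two-sided permutation test, with p adjusted over the 9 comparisons. Prox1 relative to Snap25 stood at -2.35 ± 1.37 in hippocampus (SD, n = 22) and -4.46 ± 1.45 in cortex (SD, n = 21), a difference of 2.11 ± 0.43 (SE, permutation p = 4.0e-05, adjusted p = 3.6e-04). Thus, for a given level of Snap25, more Prox1 was found in hippocampal libraries. The difference was 2.19 in male libraries alone (adjusted p = 0.0025, permutation test) and 2.03 in female libraries alone (adjusted p = 0.075, permutation test). Against Map2 in place of Snap25 it was 1.42, and in the 19 hippocampus and 11 cortex libraries with at least 10 counts of both genes it was 1.37. With 0.5 added to CPM in place of 1 it was 2.45, and with 2 added it was 1.77.

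Map2 and Grin2b also stood higher against Snap25 in hippocampus. Map2 differed by 0.69 ± 0.22 (SE, permutation p = 0.0036, adjusted p = 0.011) and Grin2b by 0.67 ± 0.19 (SE, permutation p = 9.6e-04, adjusted p = 0.0043). Neither passed in male or female libraries alone, and against Map2 in place of Snap25 the difference of Grin2b was -0.016 (adjusted p = 0.95, permutation test). Since Snap25 itself was lower in hippocampus, a shift of the reference enters every one of these values. Syt1 differed from Snap25 by -0.20 ± 0.17 (SE, adjusted p = 0.54, permutation test), which did not pass.

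**Figure D4:**
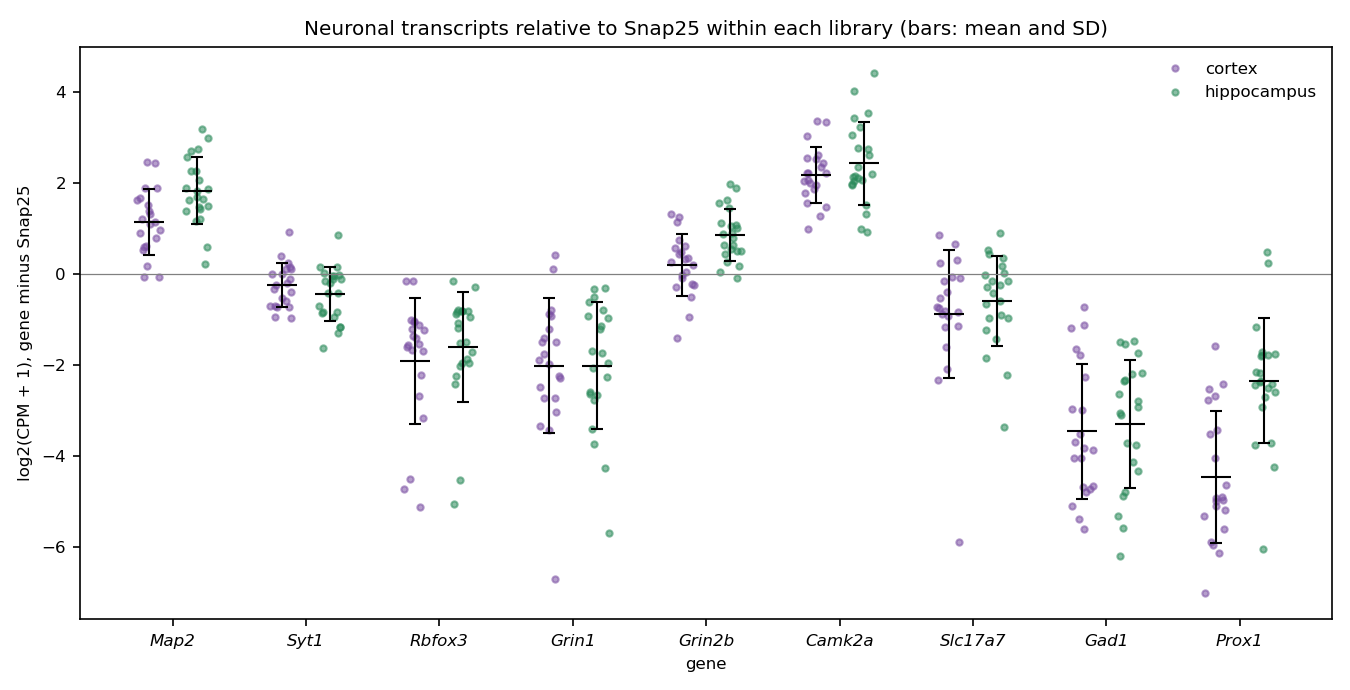
Level of each neuronal transcript minus that of Snap25 in the same library, in log2(CPM + 1) (points, libraries, 21 cortex and 22 hippocampus, and bars, mean and SD). The means of Prox1 lie farthest apart, at -4.46 ± 1.45 in cortex and -2.35 ± 1.37 in hippocampus (SD), although its libraries overlap between regions. Syt1 and Grin1 also overlap, with Syt1 at -0.24 in cortex and -0.44 in hippocampus on average.

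Lymphatic EC also use Prox1, so their other markers were examined. Ccl21a was at 0 in 43 of 43 libraries, and Lyve1 was at 0 in 37 and Mmrn1 in 30. Pdpn was at 0 in 22 and reached 10.4 CPM. Flt4, which blood EC can also express, was present in every library at 110.4 to 382 CPM. The summed level of the list ran from 119.6 to 386 CPM in cortex and from 110.4 to 382 CPM in hippocampus. Most of that sum was Flt4, so it says little of the other markers. Of 4 lymphatic markers tested 0 passed between regions (edgeR, 0 at an unadjusted p under 0.05). Among 9 hippocampal neuronal genes tested 0 passed, with 1 at an unadjusted p under 0.05 (edgeR), C1ql2, another gene of dentate granule neurons. C1ql2 was at 0 in 40 of 43 libraries, with a mean of 0 CPM in cortex and 0.89 CPM in hippocampus. Its log2 difference, hippocampus minus cortex, was 6.60 ± 2.70 (SE, p = 0.015 by edgeR's quasi-likelihood test, adjusted p = 0.67). Of the 9 hippocampal genes tested 6 had a positive difference, with a median of 0.27. Means of Calb1 were 4.98 CPM in hippocampus and 7.25 CPM in cortex, and those of Neurod1 1.65 and 1.73 CPM. C1ql2 therefore does not stand for the list.

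The 7 strains were compared by a test of any difference among them. Snap25 alone of the 10 passed by edgeR's quasi-likelihood test (adjusted p = 0.0466), where 2.68% of 29120 genes were called, and DESeq2's likelihood ratio test called 0. Unadjusted p was under 0.05 in 6 genes by edgeR and in 4 by DESeq2. Syt1 (adjusted p = 0.0510) and Grin2b (adjusted p = 0.060) fell just outside the threshold of edgeR, and Camk2a followed (adjusted p = 0.12).

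Snap25 was lowest in A/J, whose 5 libraries held 11.2, 21.2, 29.0, 62.1 and 84.8 CPM. CAST/EiJ (44.4 ± 23.3 CPM, SD, n = 6) and C57BL/6J (49.9 ± 18.6 CPM, SD, n = 6) followed, and NOD/ShiLtJ stood at 66.0 ± 36.1 CPM (SD, n = 6). The highest mean was that of DBA/2J, whose libraries held 59.0, 69.0, 147, 167 and 218 CPM. WSB/EiJ stood at 121 ± 62.4 CPM (SD, n = 6) and 129S1/SvImJ at 95.1 ± 95.5 CPM (SD, n = 9). Means of neighbours in this order lay within 1 SD of each other, and 129S1/SvImJ alone ran from 12.05 to 281 CPM.

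Syt1 followed a similar order, from 32.0 ± 19.3 CPM in A/J (SD, n = 5) to 92.5 ± 54.4 CPM in DBA/2J (SD, n = 5). Grin2b was lowest in C57BL/6J at 65.1 ± 38.4 CPM (SD, n = 6), while WSB/EiJ held 154 ± 29.5 CPM (SD, n = 6) and 129S1/SvImJ 171 ± 149 CPM (SD, n = 9). Camk2a was also lowest in C57BL/6J, at 214 ± 88.3 CPM (SD, n = 6), and stood at 468 ± 248 CPM in 129S1/SvImJ (SD, n = 9). DBA/2J thus had the highest mean for both vesicle release genes, with wide spreads. For Syt1, 129S1/SvImJ (89.8 ± 79.7 CPM, SD, n = 9) and WSB/EiJ (89.6 ± 50.7 CPM, SD, n = 6) stood close below it.

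**Figure D5:**
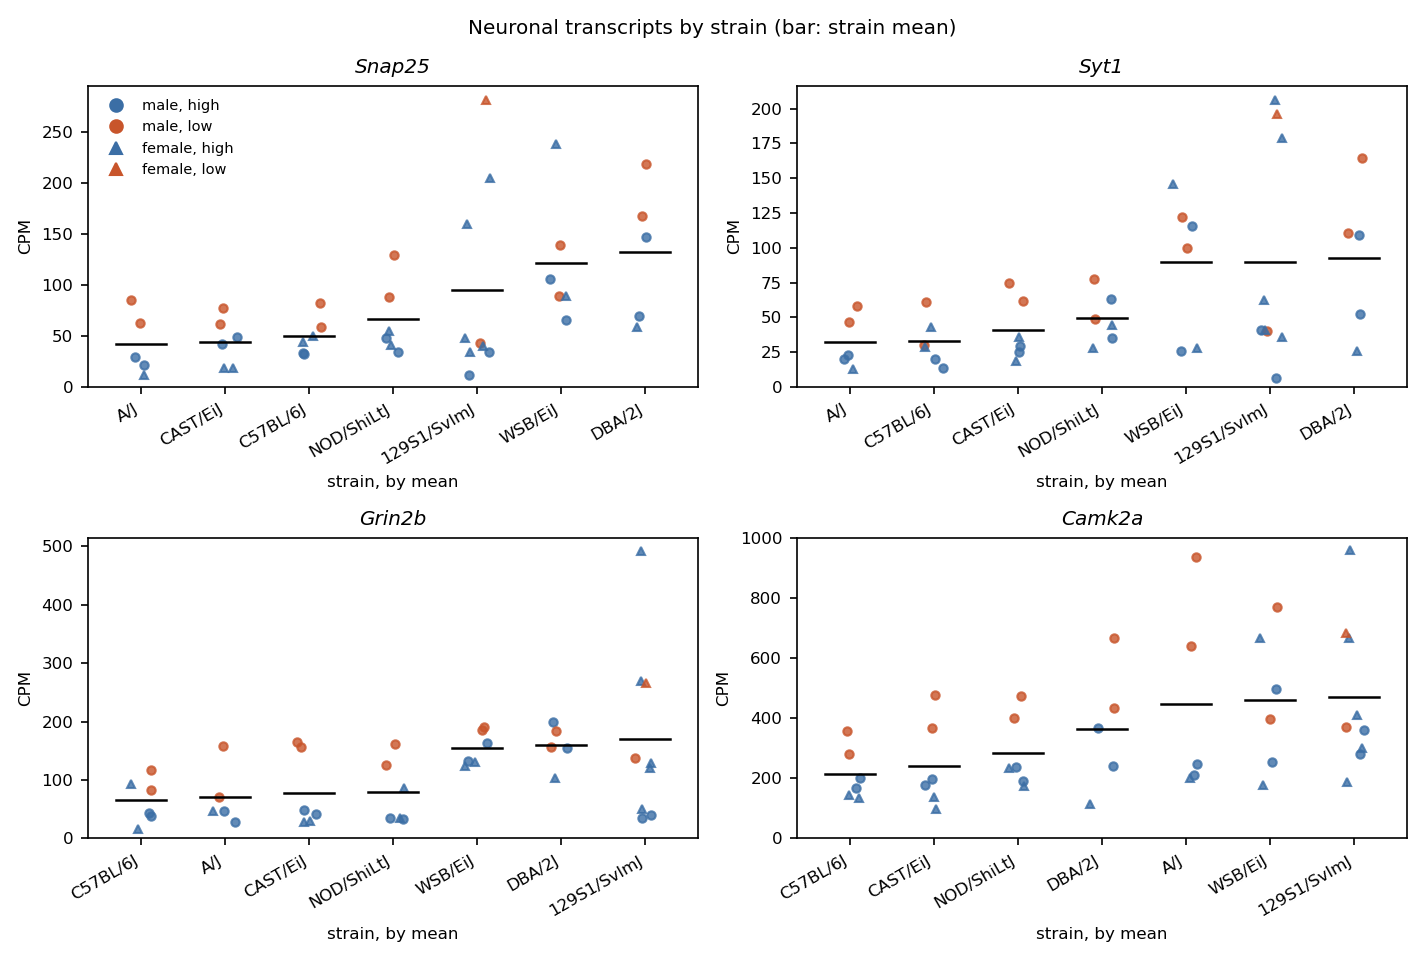
CPM of Snap25, Syt1, Grin2b and Camk2a by strain, ordered by strain mean (black bars), with each library as a point (circles, male, and triangles, female, with blue for high and orange for low). Strain ranges overlap in all 4 genes, and in 129S1/SvImJ the female cortex libraries hold the highest values, up to 281 CPM for Snap25.

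The strain result changed with the libraries and the model. With sex, region and title tag as covariates 4 genes passed, namely Snap25, Syt1, Grin2b and Camk2a, where 891 of 25275 genes were called. In male libraries alone, a choice made after seeing the data, Snap25 (adjusted p = 0.0026) and Syt1 (adjusted p = 0.019) passed by edgeR. There 474 of 27529 genes tested were called. Leaving out any strain other than 129S1/SvImJ left 0 of the 10 past the threshold, where 332 to 789 of all genes were called. Without single libraries of A/J or DBA/2J, where 715 to 837 of all genes were called, the count ran from 0 to 3. It was 0 without 6 of these 10 libraries. These were the A/J female hippocampus, male hippocampus high and male cortex high libraries, and the DBA/2J male hippocampus low, male cortex low and male hippocampus high libraries. The count was 3 without the A/J male hippocampus low library, and 2 without the A/J male cortex low, the DBA/2J female hippocampus or the DBA/2J male cortex high library. Markers of other cells also differed among strains, with 4 of 12 endothelial, 5 of 8 pericyte and 2 of 10 astrocyte markers called. Of the other 70 neuronal genes tested 2 passed, near the 2.68% of all genes, namely Pclo, a scaffold of the presynaptic active zone (adjusted p = 0.0064), and Dsp (adjusted p = 2.7e-09), a desmosomal gene.

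Between wild-derived and long-inbred strains none of the 10 transcripts passed by edgeR (0 called, where 0.749% of 29120 genes were called), and DESeq2 also called 0. At an unadjusted p under 0.05 was 1 gene by edgeR, Gad1, and 0 by DESeq2. Gad1 had medians of 8.58 CPM in wild-derived (1.23 to 103.8) and 3.41 CPM in long-inbred libraries (0 to 24.7), with a log2 difference, wild-derived minus long-inbred, of 1.24 ± 0.61 (SE, adjusted p = 0.69). The WSB/EiJ female cortex library alone held the 103.8 CPM. The median difference over the 10 was 0.07 and over all genes tested -0.38. It was -0.59, with 1 of 10 positive, without WSB/EiJ, and 0.51, with 9 of 10 positive, without CAST/EiJ. Snap25 differed by 0.08 ± 0.31 and Map2 by 0.12 ± 0.25 (SE, adjusted p = 0.94 and 0.86).

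Between female and male libraries none passed by edgeR either (0 called and 0 at an unadjusted p under 0.05, where 2.85% of 29120 genes were called), and DESeq2 called 0. The sexes also differed in depth and in a measure of library composition. Totals had a median of 21242058 counts in female (2731954 to 49372356) and 5257353 in male libraries (1626534 to 10567966). Counts on Gm23935, Gm42418 and Gm26917, genes that hold rRNA-like reads, made up 1.59% to 12.1% of a female and 12.97% to 29.3% of a male library, so that sex and this measure cannot be told apart. Prox1 had medians of 8.03 CPM in female and 4.62 CPM in male libraries, with a log2 difference, female minus male, of 1.17 ± 0.60 (SE, adjusted p = 0.39). It was at or under the floor in 2 of 16 female and 9 of 27 male libraries. The part of depth was not tested. Slc17a7 had the largest difference of the opposite sign, at -0.56 ± 0.34 (SE, adjusted p = 0.48), with medians of 23.9 and 55.4 CPM. The median over the 10 was 0.22 with 8 positive. The tag was unequal between the sexes, and with strain, region and tag as covariates the median was 0.47, with 0 called and Map2 at 0.63 ± 0.24 (SE, adjusted p = 0.26). Without 129S1/SvImJ, which gave 6 of the 16 female libraries, it was -0.66 and 2 genes fell in female libraries, Camk2a by 0.88 (adjusted p = 0.036) and Slc17a7 by 1.80 (adjusted p = 0.0034) on the log2 scale. With the rRNA-like percentage added to the model it was -1.02, with 0 called.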

How the data were processed

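The authors sorted EC, depleted rRNA, prepared stranded low-input libraries without molecular identifiers, read them from one end, aligned reads to mm10 with HISAT2 2.1.0 and counted them with featureCounts of Subread 1.4.4. SAMtools 1.9 is also named in the submitters' processing notes. The authors deposited raw counts per gene, with no normalization, for 54532 genes, of which 54495 matched GENCODE release M21 by Ensembl identifier. Columns were matched to samples by name, and 0 were left unmapped.

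Here edgeR 4.0.16 in R 4.3.3 gave TMM scaling factors. A gene had to reach 0.5 CPM in 1 or more libraries, and all such genes entered edgeR's quasi-likelihood test, two-sided and without covariates, with Benjamini-Hochberg adjustment at 0.05. Deviances were bias-adjusted, and the dispersion followed the trend. This setting was taken from an earlier analysis of these data, which chose it after counts under the default had been seen and on its rate of false calls in simulation. In simulated data with changed genes, false calls still exceeded the nominal rate, most of all among strains. DESeq2 1.42.0 was the alternative. Where covariates were added, a gene was dropped if any fitted count was over 5 times its highest observed one. Permutation tests drew 100000 resamples in Python 3.11.15 with numpy 2.4.6. The members and lists were chosen with earlier results of these data known. From each list at most 2 genes per direction and comparison were named, those with the smallest p among genes that passed, and some listed genes are not reported here. C1ql2, Calb1, Neurod1, the microglial and lymphatic markers and the reference genes of the EC were named after their values were seen. Totals per library ran from 1626534 to 49372356 counts, and deeper libraries give the more precise values. Floors of 3 counts cover counting error only.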

Additional observations from a re-analysis of the deposited data

Results flagged for a closer look

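In each strain the highest and lowest library of each of the 10 genes was compared with the spread of its group by Dixon's ratio, in 70 groups, of which chance flags about 1 in 20, and 3 stood out, all of Grin1. The 129S1/SvImJ male hippocampus library titled high stood at 0.31 on the log2(CPM + 1) scale, from 1 count, where the other 8 libraries ran from 13.6 to 118 CPM. Among A/J libraries the male hippocampus library titled low stood at 5.81 (55.2 CPM, from 335 counts), with the others between 5.43 and 9.66 CPM. Among DBA/2J libraries the male hippocampus library titled low stood at 5.71 (51.2 CPM, from 362 counts), with the others between 20.7 and 26.2 CPM.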

How the results depend on the processing

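Of 98 counts of genes past the threshold in other settings, 60 were the same as or near the main count, 23 were lower and 15 higher. Among single genes, many of which passed in no setting, 891 of 971 values stayed on their side of the threshold. A further 38 no longer passed, 40 newly passed and 2 changed sign with a call in at least 1 of the settings compared. Signs of values without a call changed more often. Between sexes 8 of 10 were positive, against 2 without 129S1/SvImJ, 2 without the 2 libraries highest in these genes and 0 with the rRNA-like percentage in the model. By origin 7 were positive, against 1 without C57BL/6J or WSB/EiJ and 9 without CAST/EiJ. With the tag (4 genes past the threshold), the count was 7 with edgeR's default deviances, which called 8327 of 27529 genes. It was also 7 with counts drawn down to the smallest total (493 of 27860 genes called) and 7 with the other labels as covariates (560 of 24455). It was 2 without 129S1/SvImJ, A/J, C57BL/6J, CAST/EiJ or NOD/ShiLtJ. In splits chosen after seeing the data, it was 0 in cortex (27 of 22392 genes called) and 1 in hippocampus alone (5 of 24028). Without the male library with the smallest total, also chosen after seeing the data, it was 5 (374 of 27485). Among strains (1 gene), the count was 0 with DESeq2, 0 with DESeq2's size factors in edgeR and 4 with no filter on low counts (926 of 31219 genes called). It was 6 with the default deviances, 5 with counts drawn down and 4 with covariates. Leaving out strains, it was 2 without 129S1/SvImJ (731 of 27100) and 0 without any other strain. It was 0 to 3 without 1 library of A/J or of DBA/2J. In male libraries alone, a choice made after seeing the data, it was 2 (474 of 27529). Between regions the count was 1 with the default deviances (8023 of 29120 genes called), and between sexes 2 without 129S1/SvImJ (532 of 27100). Relative to Snap25 (3 genes) it was 0 in female and 1 in male libraries alone. Against Map2 in place of Snap25, Grin2b stood at -0.016 and Camk2a at -0.44 between regions. The cause of these changes was not tested.

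Over all genes, the default deviances called 8023 between regions, 13526 among strains, 8327 with the tag, 10473 between sexes and 6712 by origin, against 22, 781, 293, 830 and 218. DESeq2 called 55, 1314, 640, 1000 and 395. Counts drawn down gave 115, 1234 and 493 in the first 3 and 344 by origin. Covariates gave 46 between regions, 891 among strains, 560 with the tag and 539 between sexes, and the rRNA-like share gave 65. With DESeq2's size factors 430 of 585 genes called were higher in female, against 745 of 830, and the median of all genes was -0.24 against -0.12. No analysis paired by mouse was possible because no label ties a library to its mouse. Libraries matched by other labels are given only as counts of pairs, and the fits with covariates take up those labels. Low counts limit Gad1 and Prox1, with 10 and 11 of 43 libraries at or under the floor.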
